A study of Homo sapiens with 7 samples.

Results

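The 8 genes described here are G6PC, PCK1, PCK2, FBP1 and PC of gluconeogenesis and HK1, HK2 and PKLR of glycolysis. They were chosen by symbol from the 30032 loci of the RNA-Seq table, all 8 were found, and the rule uses no measured value. All data are of HepG2 cells, an established line of human liver cancer, freshly cultured, and the sources used here name no treatment. There were 7 samples, with 1 for each assay: a map of nucleosome positions from native MNase-Seq (digestion of uncrosslinked chromatin with micrococcal nuclease), ChIP-Seq of 5 histone marks (H3K27ac, H3K9ac, H3K4me3, H3K9me3 and H3K27me3), and RNA-Seq. RNA levels were deposited as FPKM (fragments of a transcript scaled by its length and by library size) in 2 columns, called run 1 and run 2 below, and the sources used here do not say whether these are separate cultures. With 1 sample per assay and no second condition, no difference was tested and no P value was computed, and the distance between the runs was the only measure of error.

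Glycolysis breaks glucose down to pyruvate, and gluconeogenesis rebuilds glucose from pyruvate, lactate and amino acids. Most of their steps use the same enzymes in both directions. The steps in which each direction has its own enzyme are therefore the places where liver cells set the net flow between storing, burning and releasing glucose. H3K4me3, H3K9ac and H3K27ac are marks of active chromatin, of which H3K4me3 is typical of promoters and H3K27ac of both promoters and enhancers, whereas H3K27me3 and H3K9me3 are marks of repressed chromatin.

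HepG2 carried the RNA of liver cells. All 9 liver markers examined were at an FPKM of at least 1, from 56.6 for FGB to 10011 for ALB. Of 7 markers of other cell types, 6 were at or under 0.287, with PTPRC, CD3E and DES at 0 in both runs. The remaining marker, CD68, is listed in 1 locus with 6 other symbols, so its FPKM of 543 cannot be assigned to it. Of all 14217405 nucleosome positions, 203848 (1.43%) carried at least 1 of the 5 marks. The lists carry only coordinates, with neither peak heights nor reads, which leaves the depth at any mark unknown. The paper reports more marked nucleosomes in HepG2 than these lists hold, so they may lack positions that the authors called. An unmarked position here is therefore only one without a listed peak.

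The DNA just upstream of the start of transcription is shown for 4 genes whose starts are described below: G6PC and PCK2 with different marks at the start, FBP1 with none there and HK2 with marks beginning further inside the gene. The sequences are the 250 bases before the RefSeq start in GRCh38.p14, whereas the positions and marks are in hg19, so the builds were not aligned and no coordinate was carried from one to the other. G6PC is listed in RefSeq as G6PC1, and 7 of the 8 genes had an entry, PCK1 being the exception. Capitals mark matches, on either strand, to TATAAA (the core element bound by TBP), CCAAT (read as ATTGG on the other strand, bound by NF-Y), GGGCGG (read as CCGCCC, a GC box), TGACG (read as CGTCA, the core of a cAMP response element), TGTTTAC (a forkhead site) and CACGTG (an E box).
G6PC (chr17:42900549-42900798, + strand): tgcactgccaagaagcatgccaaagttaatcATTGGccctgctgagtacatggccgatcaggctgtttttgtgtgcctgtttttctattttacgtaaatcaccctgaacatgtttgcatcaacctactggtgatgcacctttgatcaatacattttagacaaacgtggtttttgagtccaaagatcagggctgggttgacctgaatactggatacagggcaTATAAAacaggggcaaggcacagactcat
PCK2 (chr14:24094061-24094310, + strand): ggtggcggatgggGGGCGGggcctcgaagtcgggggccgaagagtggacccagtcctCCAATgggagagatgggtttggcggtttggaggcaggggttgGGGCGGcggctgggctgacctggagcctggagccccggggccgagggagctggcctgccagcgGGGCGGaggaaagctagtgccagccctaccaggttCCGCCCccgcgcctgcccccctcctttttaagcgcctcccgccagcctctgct
FBP1 (chr9:94639519-94639768, - strand): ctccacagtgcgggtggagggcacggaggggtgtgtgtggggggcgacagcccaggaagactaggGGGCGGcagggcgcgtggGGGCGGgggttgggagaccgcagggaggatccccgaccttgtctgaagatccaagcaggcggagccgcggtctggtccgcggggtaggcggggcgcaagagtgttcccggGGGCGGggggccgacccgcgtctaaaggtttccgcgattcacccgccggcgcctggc
HK2 (chr2:74833877-74834126, + strand): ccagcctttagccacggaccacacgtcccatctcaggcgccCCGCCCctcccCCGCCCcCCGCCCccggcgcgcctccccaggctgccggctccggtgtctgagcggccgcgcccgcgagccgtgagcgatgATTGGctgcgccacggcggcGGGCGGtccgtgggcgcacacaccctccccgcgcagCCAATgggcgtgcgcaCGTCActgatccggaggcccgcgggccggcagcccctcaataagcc

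Among these 4 genes, G6PC was the poorest in G and C. Its 250 bases had a GC content of 44% with 3 CpG, at percentile 20.1 for GC among the 35116 RefSeq promoters of this length, whose median was 58% with 11 CpG. G6PC was also the only gene of the 7 with TATAAA, beginning 29 bases before the start, and TATAAA occurred in 10.7% of all promoters. PCK2 had a GC content of 71.6% with 17 CpG, 4 GC boxes and 1 CCAAT. FBP1 had a GC content of 72.8% with 26 CpG and 3 GC boxes, and HK2 reached 76.8% with 34 CpG, at percentile 92.5. GGGCGG in either direction was present in 42.6% of all promoters and CCAAT in 32.0%, so those matches are common letters. For comparison, the first RefSeq starts of HK1 and PKLR had 1 and 2 CpG and a GC content of 46.8% and 46%. Across all its listed starts, however, HK1 ranged from 0 to 30 CpG and from 45.6% to 74% in GC content. The second start of PKLR had 5 CpG and a GC content of 57.6%. The letters of an E box, found in 6.34% of promoters, were before the first start of PKLR but not before its second. They were also before the second start of HK2. TGTTTAC was found before none of the listed starts of the 7 genes, against 2.98% of all promoters, which says only that these letters are not in these windows.

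The RNA levels of the 8 genes spanned from an FPKM of 0.350 to 165. In order of the mean of both runs they were PCK2, HK2, PC, PKLR, PCK1, G6PC, FBP1 and HK1, and for no pair of neighbours in this order did the values of the runs overlap. The median of the 8 was 5.72, and that of 13289 named genes with coordinates of their own was 0.583. An FPKM of at least 1 was reached by 6 of the 8 genes and by 47.6% of the named genes, a full count of that set in 1 sample.

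**Figure D1:**
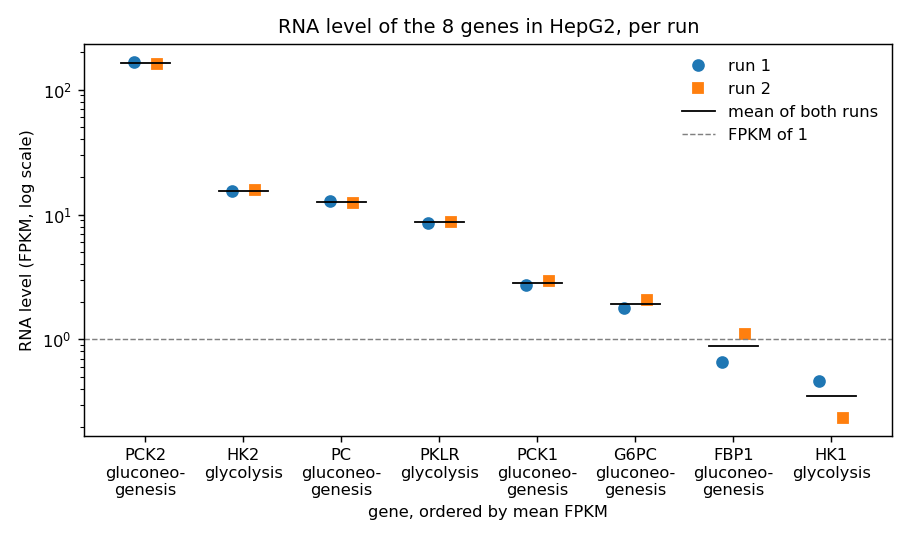
RNA level of the 8 genes in HepG2 as FPKM on a log axis, with a circle for run 1, a square for run 2 and a bar for their mean, ordered by the mean. PCK2 stands at 165, HK2, PC and PKLR lie between 8.64 and 15.5, and FBP1 and HK1 lie below the dashed line at an FPKM of 1.

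The first committed step of gluconeogenesis from pyruvate is carried out by PC, the mitochondrial pyruvate carboxylase that makes oxaloacetate. The FPKM of PC was 12.8 in run 1 and 12.4 in run 2. Its mean of 12.6 was at percentile 76.8 of the named genes. The table lists the same coordinates for 3 loci, PC, LRFN4 (FPKM 3.45) and C11orf80,RCE1 (12.5), so the level of PC is less certain than those of genes listed alone.

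Oxaloacetate is turned into phosphoenolpyruvate by phosphoenolpyruvate carboxykinase, in mitochondria by PCK2 and in the cytosol by PCK1, the form that fasting hormones induce in liver. The FPKM of PCK2 was 167 (run 1) and 162 (run 2). This was at percentile 98.4, among the 386 named genes (2.90%) at an FPKM of 100 or more. That of PCK1 was 2.70 (run 1) and 2.91 (run 2), at percentile 58.4. PCK2 was above PCK1 by 5.87 on the scale of log2(FPKM + 0.01), with 5.95 in run 1 and 5.79 in run 2, or 58.7 times in FPKM. The mitochondrial form was the higher in both runs.

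FBP1, the liver fructose bisphosphatase, removes a phosphate from fructose bisphosphate and opposes phosphofructokinase. Run 1 gave FBP1 an FPKM of 0.656 and run 2 gave 1.10, so that the runs fell on either side of 1. This difference between the runs was larger than that of 94.1% of the 881 named genes within 2-fold of its FPKM. FBP2, the muscle form, is listed at 2 loci with the same coordinates, read in opposite directions. The locus on the strand of FBP1 measured 0.188 in run 1 and 0.335 in run 2 as FPKM, and the other had 1.18 and 0.863, so the order of FBP1 and FBP2 depends on which locus is taken.

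The last step of gluconeogenesis, the release of free glucose, needs the catalytic subunit of glucose-6-phosphatase, and G6PC is the form of liver and kidney. Its FPKM was 1.77 in run 1 and 2.05 in run 2, at percentile 55.9. G6PC3, the form found in most tissues, had 34.8 and 32.5. G6PC3 was above G6PC by 4.13 on the scale of log2(FPKM + 0.01), with 4.29 in run 1 and 3.98 in run 2. G6PC3 is outside the named genes with coordinates of their own, so its level is less certain than that of G6PC. G6PC2, the form of pancreatic islets, was at 0 in both runs. SLC37A4, which carries glucose 6-phosphate into the endoplasmic reticulum for this reaction, had an FPKM of 22.1 and 21.4.

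Hexokinases start glycolysis by phosphorylating glucose. HK2, the form of insulin-responsive tissues that many tumours express, was measured at 15.5 (run 1) and 15.6 (run 2) FPKM, at percentile 80.1. HK1, the form of most tissues, had 0.465 and 0.234, at percentile 47.7, and this difference between the runs was larger than that of 88.8% of the 829 named genes within 2-fold of its FPKM. HK2 was above HK1 by 5.43 on the scale of log2(FPKM + 0.01), with 5.03 in run 1 and 5.998 in run 2. HKDC1, a hexokinase relative encoded beside HK1, had a mean FPKM of 10.96, and HK3 had 0.0061. Of these 4 genes, HK2 and HKDC1 were above an FPKM of 10, and HK1 and HK3 were below 1.

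Pyruvate kinase ends glycolysis, and PKLR encodes the form of liver and red cells. Its FPKM was 8.55 in run 1 and 8.72 in run 2, at percentile 71.2. PKM, listed here under its older symbol PKM2, encodes the form of muscle and of most tumours and had 214 and 208. PKM was above PKLR by 4.61 on the scale of log2(FPKM + 0.01), with 4.64 in run 1 and 4.57 in run 2. PKLR shares its coordinates with HCN3, a channel gene read on the other strand, which had a mean FPKM of 2.61.

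**Figure D2:**
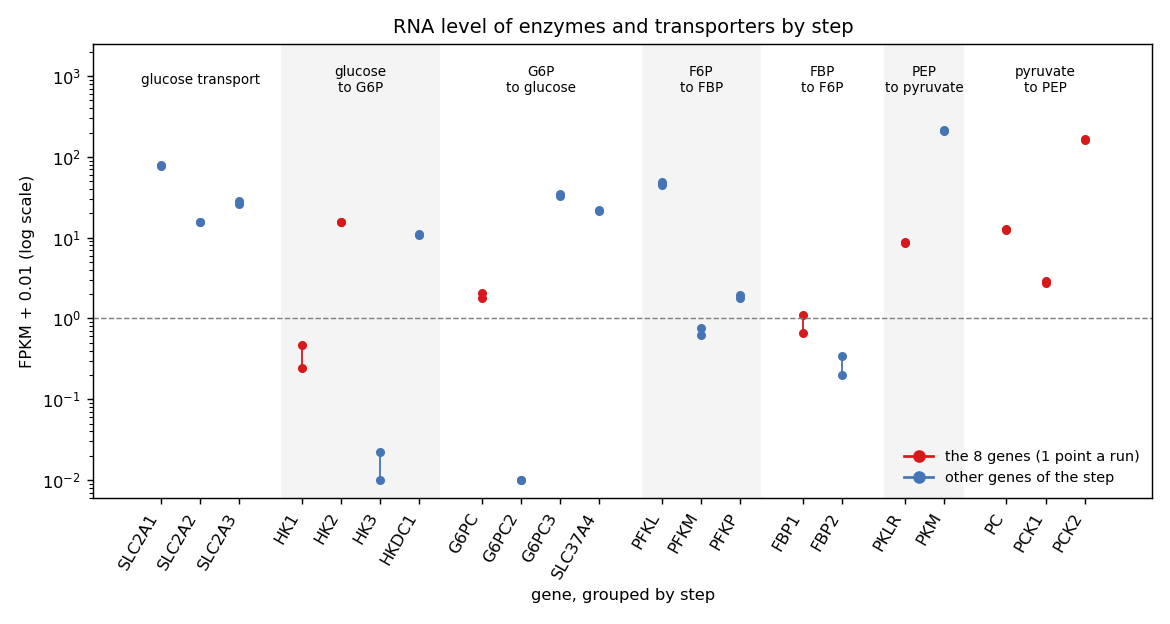
RNA level of enzymes and transporters as FPKM + 0.01 on a log axis, with 1 point for each run joined by a line, red for the 8 genes and blue for other genes of the same step, grouped by reaction (G6P, glucose 6-phosphate; F6P, fructose 6-phosphate; FBP, fructose bisphosphate; PEP, phosphoenolpyruvate). PCK2 lies 5.87 log2 units above PCK1 and HK2 5.43 above HK1, while G6PC and PKLR lie below G6PC3 and PKM.

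Of 40 other genes of the pathway, 38 were found, and MPC1 and MPC2 were not analysed here. An FPKM of at least 1 was reached by 31 of the 38, and the median of the 38 was 13.2, against 5.72 for the 8 genes. The highest were GAPDH at 1673, ENO1 at 675 and ALDOA at 526, all enzymes of shared or glycolytic steps. The glucose transporters SLC2A1, found in most tissues and raised in tumours, and SLC2A2, the transporter of liver and islets, had 77.9 and 15.5. The 7 genes under 1 were HK3, PFKM, FBP2, PGK2, PGAM2, G6PC2 and PDK4, with FBP2 taken at the locus on the strand of FBP1, since its other locus had a mean FPKM of 1.02. Several of these values belong to merged loci, such as GAPDHS with TMEM147 and ALDOC with SPAG5.

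Marks were counted per nucleosome position over each locus plus 10 kb on either side. Nucleosome positions there numbered from 150 for PCK1 to 1237 for PC, and 129 of them were marked in all. H3K4me3/H3K9ac/H3K27ac on the same position, called "T" below, made up 53 of the 129 (41.1%), against 21.0% of marked positions across the genome. H3K27ac alone followed with 30 (23.3%, genome 19.9%), H3K4me3 alone with 25 (19.4%, genome 11.5%), H3K4me3/H3K9ac with 10 and H3K9ac/H3K27ac with 8. The other 3 positions each carried a different combination, namely H3K9ac alone, H3K4me3/H3K27ac and H3K27ac/H3K9me3. These windows were placed on genes, whereas the genome shares count all marked positions, near a gene or not. The paper reports that T is mostly enriched near starts of transcription. No share over the windows of other named genes is given here. Whether the share of T differs from that of other genes was therefore not tested. Neighbouring positions are not independent, since 28 of 104 neighbouring marked pairs (26.9%) overlapped each other. Of the 129 positions, 63 were nearer to the start of the gene counted than to any other listed start, and this split is given for each gene below.

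Around the transcription start site (TSS), taken as the end of the listed locus on its inferred strand, the 8 genes fell into different layouts. At least 1 T within 2 kb of the TSS was present in 5 of the 8 genes, against 42.9% of the named genes, and at least 3 T in 1 of the 8, PCK2, against 27.8%. The latter count was 2 of the 8 with a window of 5 kb, which added HK2, and also 2 with any overlap of a peak and a position, which added PKLR. All T within 2 kb were downstream of the TSS in each of the 5 genes, as in 53.9% of the named genes with a T there, and 8 of these 13 T were those of PCK2. No H3K27me3 peak was listed in any of the 8 windows of locus plus 10 kb. H3K9me3 was listed in 1, that of G6PC, against 45.3% of named genes with H3K27me3 or H3K9me3 in such a window.

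**Figure D3:**
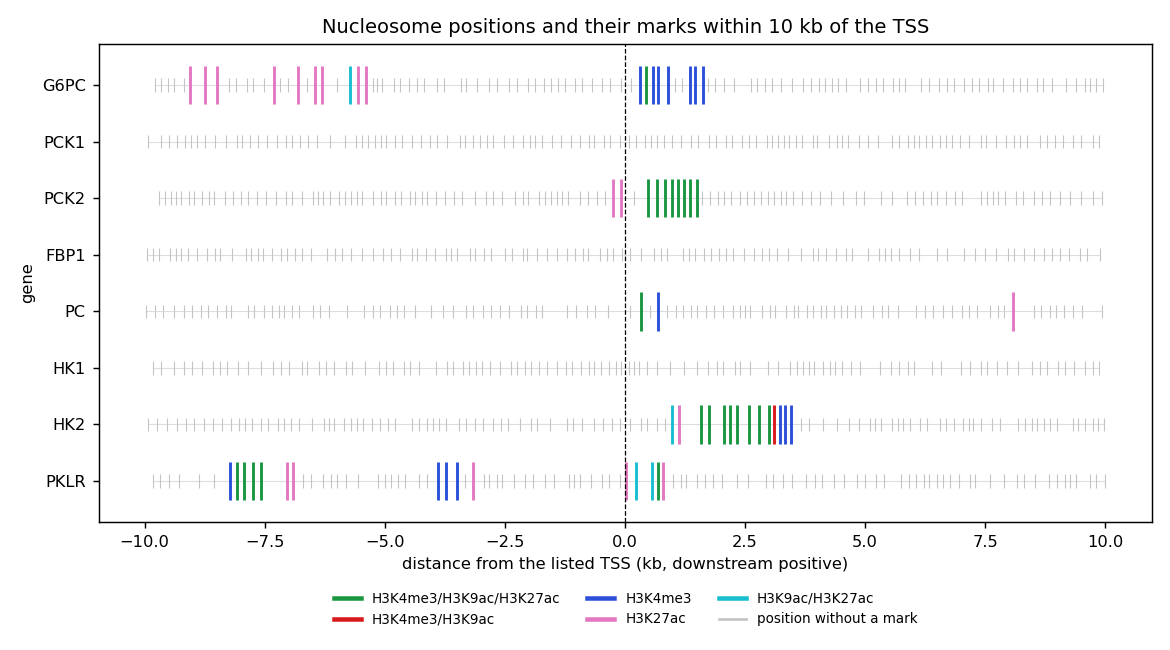
Nucleosome positions up to 10 kb from the TSS for the 8 genes, each a tick at its distance from the TSS in kb (downstream positive), thin and grey without a mark and tall and coloured by its combination of marks. PCK2 has 8 T from 0.4765 kb to 1.5015 kb downstream, G6PC has 7 H3K4me3-only positions with 1 T between them, HK2 is marked from 0.9725 kb onwards, and PCK1, FBP1 and HK1 have no marked position within 2 kb.

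PCK2 (hg19, chr14:24563175-24575997, + strand) had the most T at its start. The window of locus plus 10 kb held 182 positions, of which 19 (10.4%) were marked and 14 were T. A first stretch of 10 marked positions, from 24562857 to 24564746, ran over the TSS: 2 positions with H3K27ac alone upstream and 8 T downstream. Named genes within 2-fold of its FPKM had a median of 4 T within 2 kb. A second stretch of 9 positions, 6 of them T, lay 19.8 kb to 22.0 kb downstream at the start of the neighbouring gene DCAF11 (FPKM 54.7), so 10 of the 19 were nearest to PCK2. NRL starts 0.655 kb from PCK2 in the opposite direction with an FPKM of 1.99, and marks upstream of the TSS cannot be assigned to either gene. RHBDF2, at an FPKM of 4.51, was the only other named gene with the same counts of all 5 marks within 2 kb of its TSS.

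G6PC (hg19, chr17:41052627-41068213, + strand) differed from PCK2 in the kind of mark. Within 2 kb, 8 of 24 positions were marked, all between 0.3145 kb and 1.62 kb downstream, and 7 of the 8 carried H3K4me3 alone. The other was 1 T. At least 7 positions with H3K4me3 alone in that window were found in 22 of the 13289 named genes (0.166%), a count made after the value of G6PC was seen. Their median FPKM was 0.666, and 8 of the 22 were at 1 or more. G6PC also had 2 stretches upstream without H3K4me3: 7 positions at 5.40 kb to 7.30 kb, 6 with H3K27ac alone and 1 with H3K9ac/H3K27ac, and 3 with H3K27ac alone at 8.4955 kb to 9.07 kb. These stretches lay beyond the listed start of LOC388387 (FPKM 0.0842), 1.88 kb away and read in the opposite direction, so that 9 of the 19 marked positions were nearest to G6PC. The single H3K9me3 position of all 8 windows, together with H3K27ac, lay 20.1 kb downstream of the TSS in the flank. No other named gene had the same counts of all 5 marks near its TSS.

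HK2 (hg19, chr2:75059782-75120584, + strand) had 1 stretch of 14 marked positions and nothing else among its 456 positions. It began 0.9725 kb downstream of the listed TSS, reached 3.45 kb and spanned 2617 bp, from 75060685 to 75063301, and all 14 were nearest to the TSS of HK2. The stretch held 8 T, 3 positions with H3K4me3 alone, and 1 each with H3K4me3/H3K9ac, H3K9ac/H3K27ac and H3K27ac alone. Only 2 of its T were within 2 kb of the listed TSS, against a median of 3 for named genes within 2-fold of its FPKM, and all 8 were within 5 kb. RefSeq lists a second start of HK2, 1.043 kb downstream of the first, and the distance from either start was not aligned between the builds. ZNF101, at an FPKM of 7.59, was the only other named gene with the same counts of all 5 marks near its TSS.

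PKLR (hg19, chr1:155247167-155271225, - strand) had 5 marked positions within 2 kb of its TSS, from 0.0325 kb to 0.8015 kb downstream. They were 1 T, 2 with H3K9ac/H3K27ac and 2 with H3K27ac alone, so H3K4me3 was on 1 of the 5. At G6PC, by contrast, H3K4me3 was on all 8 marked positions and the acetyl marks were on 1. RefSeq lists a second start of PKLR, 0.486 kb downstream of the first, and the distance from either start was not aligned between the builds. Some of the 5 marked positions, counted as downstream of the listed TSS, may therefore lie upstream of that second start. PKLR lies in a dense neighbourhood. Its window held 24 marked positions of 218, of which 5 were nearest to its TSS. A single position with H3K27ac alone lay 14.9 kb inside the gene. The others lay towards the start of HCN3 in the same locus, towards the locus CLK2,FAM189B,SCAMP3 (FPKM 49.2), and upstream of PKLR. FDPS (114) and RUSC1 (11.3) are listed to start 3.37 kb from the TSS of PKLR. A stretch of 4 marked positions without a T lay over that listed start, 3.17 kb to 3.90 kb upstream of PKLR. Another stretch, of 7 positions with 4 T, lay further away, 6.91 kb to 8.23 kb upstream. No other named gene had the same counts of all 5 marks near its TSS.

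PC (hg19, chr11:66511552-66726073, - strand) had 2 marked positions at its listed TSS, a T at 0.3265 kb and H3K4me3 alone at 0.6865 kb downstream. The same counts of all 5 marks were found at 47 other named genes with a median FPKM of 4.74, and those nearest to PC in FPKM were ZNF720 at 12.5 and AGAP3 at 13.2. A longer stretch of 12 marked positions with 6 T lay inside the locus, 50.7 kb to 52.8 kb downstream, from 66673194 to 66675396. RefSeq lists further starts of PC at 50.43 kb and 52.349 kb from the first. Stretches with 4 T each at 101 kb to 103 kb, 115 kb to 116 kb and 213 kb to 214 kb lay further inside. The whole locus is shared with RCE1, C11orf80 and LRFN4, which are read on the other strand, so none of these stretches can be assigned to PC alone. Of the 39 marked positions, 25 were nearest to the TSS of PC, but the starts of genes inside a shared locus are not listed separately.

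FBP1 (hg19, chr9:97365415-97402590, - strand) had no mark on the 22 positions within 2 kb of its TSS, and its marks lay at the other end of the gene. A stretch of 11 positions from 97369142 to 97371851, 30.8 kb to 33.4 kb downstream and inside the locus, carried 5 T and 6 positions with H3K27ac alone. A further 3 positions with H3K4me3 alone lay 39.5 kb to 39.9 kb downstream in the flank. None of the 14 was nearest to the TSS of FBP1, because FBP2 on the same strand is listed to start 46.5 kb away. Among named genes, 394 (2.96%) had no T within 2 kb but at least 5 T over locus plus 10 kb, a count made after FBP1 was seen. Their median FPKM was 1.69, and 217 of them (55.1%) were at 1 or more.

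**Figure D4:**
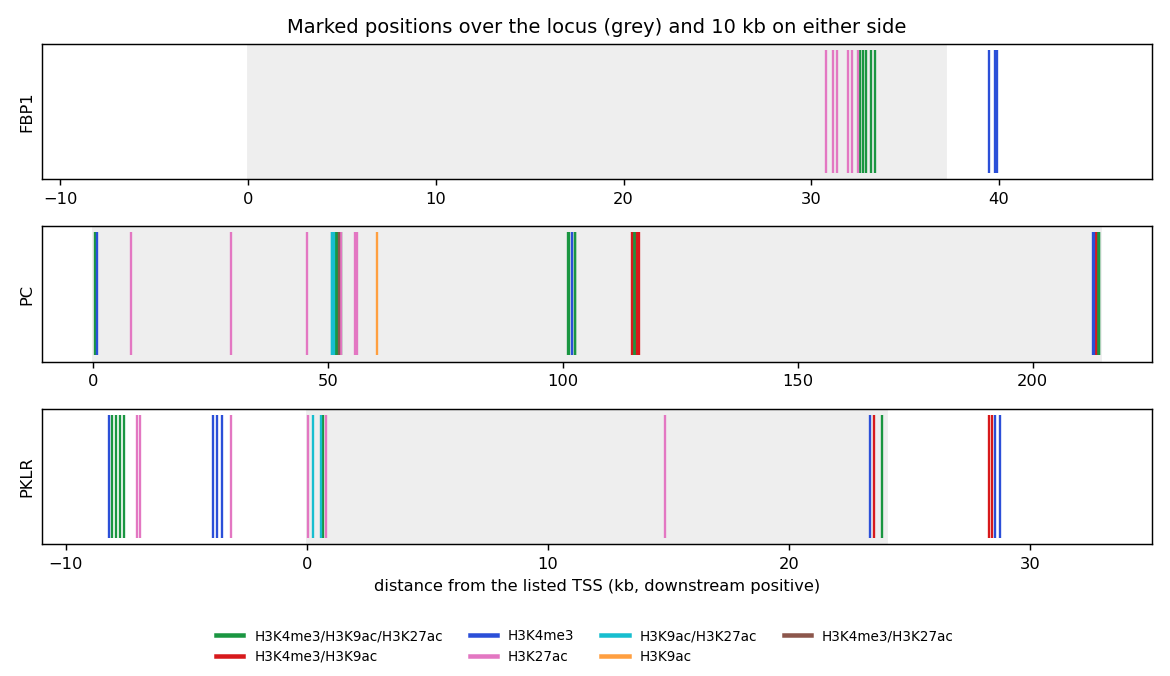
Marked positions over the whole listed locus (grey) and 10 kb on either side for FBP1, PC and PKLR, as distance from the TSS in kb (downstream positive), coloured by combination of marks. The marks of FBP1 lie at 30.8 kb to 39.9 kb, PC has its largest stretch at 50.7 kb to 52.8 kb, and most marks of PKLR lie outside its first 2 kb.

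PCK1 and HK1 had no position with a listed peak over locus plus 10 kb, against 13% of the named genes. PCK1 (hg19, chr20:56136137-56141513, + strand) is a short gene, and its window held 150 positions. Among the 6331 named genes at an FPKM of at least 1, 0.695% had no mark in this window, and PCK1 was the only one of the 8 genes with both. Among 1491 named genes within 2-fold of its FPKM, 27 (1.81%) had no mark there, and the median gene had 2 T within 2 kb. None of these groups was matched to PCK1 in window size, and its window held the fewest positions of the 8. For HK1 (hg19, chr10:71029756-71161637, + strand), 0 of 808 positions were marked. At least as many positions were found at 1350 named genes, of which 10 (0.741%) had no mark, and of the 637 among them at an FPKM of 0.5 or less, 9 (1.41%) had none, counts that were made after HK1 was seen. RefSeq lists 7 starts of HK1 over 64.6 kb, and all positions inside the listed locus were without a mark, so this did not depend on which of its starts inside the locus is used. HKDC1, which lies just upstream, had 8 marked positions within 2 kb of its own TSS.

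**Figure D5:**
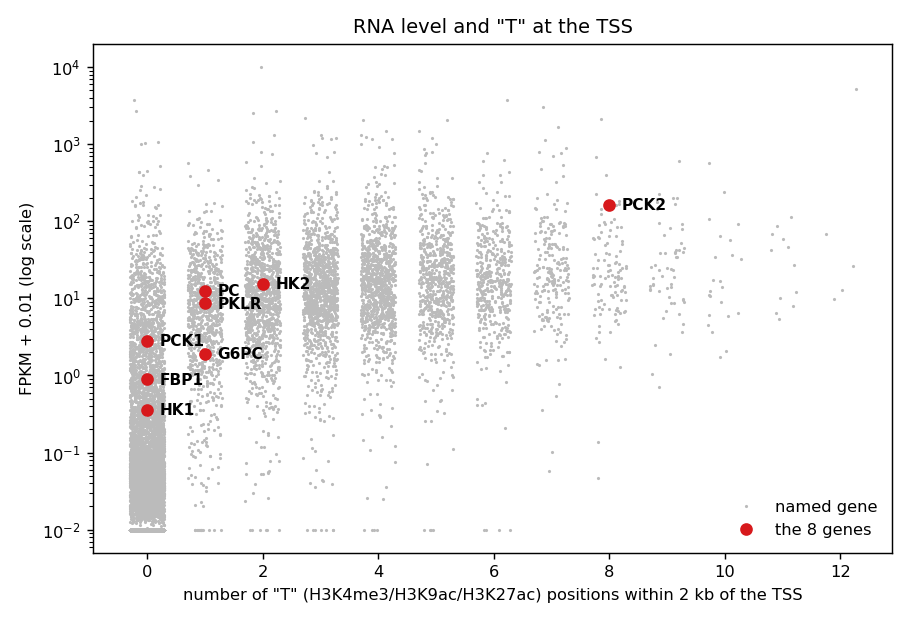
RNA level as FPKM + 0.01 on a log axis against how many T lie within 2 kb of the TSS, with small grey points for 13289 named genes (spread sideways for visibility) and red points for the 8 genes. PCK2 is at 8 T and an FPKM of 165, HK2 at 2 T, and PCK1, FBP1 and HK1 at 0 T with FPKM from 0.350 to 2.81.

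RNA level and T near the TSS were set side by side for the 8 genes as a description, since 8 genes of 1 cell line give no test. Within 2 kb, the gene with the highest FPKM, PCK2, had the most T (8), and HK2, second in FPKM, had 2. This order rests on the way of counting: within 5 kb HK2 also had 8, and with any overlap PKLR had 3 and G6PC and HK2 had 2 each. PC, PKLR and G6PC had 1 T each at 12.6, 8.64 and 1.91. PCK1 at 2.81 had no T while G6PC at 1.91 had 1, so the order was not kept throughout. Apart from PCK2, no gene of the 8 had more T than the median of named genes within 2-fold of its FPKM, which was 1 for G6PC, 2 for PCK1, 3 for HK2, PC and PKLR, and 0 for FBP1 and HK1. In the list of other pathway genes, 12 of the 38 had at least 3 T, a share near the 27.8% of all named genes. The list was richer in expressed genes: 31 of the 38 were at an FPKM of at least 1, against 47.6% of named genes. The shares were therefore not taken from genes alike in RNA level. The 12 with at least 3 T were all at an FPKM of at least 1, and 0 of the 7 under 1 had as many. No such split is given here for all named genes. A high RNA level without T near the listed TSS also occurred. ALDOA had an FPKM of 526 and 0 T, and SLC2A1 had 77.9 and no marked position within 2 kb. Over locus plus 10 kb, however, ALDOA had 23 marked positions and SLC2A1 had 19. SLC2A1 is also outside the named genes with coordinates of their own, so its listed TSS is less certain. In bulk samples such as these, a mark or RNA in fewer cells and a lower level in each cell cannot be told apart.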

How the data were processed

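The authors mapped reads to hg19 (BWA for ChIP-Seq and MNase-Seq; TopHat2 2.1.0, Bowtie, HOMER 4.7 and edgeR are named for RNA-Seq in the submitters' processing notes, with no role given). The authors called nucleosome positions with DANPOS and histone peaks at those positions with NUCLIZE, and deposited both as coordinates, of 140 bp per position, with no score. They deposited RNA-Seq values as FPKM in 2 columns of 1 sample, in the layout of Cuffdiff. The deposited columns of their own comparison (fold change, P and q values) were not used.

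Each peak reached 3 bp beyond 1 position and was assigned to it by the largest overlap. Coordinates count from 1. Both runs were averaged and counted as 1 replicate. Strand was inferred from the order of locus numbering and was the same as in RefSeq for 8405 of 8436 genes (99.6%). The background was 13289 of 23303 named loci, each with its own coordinates and 1 symbol. PC and PKLR are outside it. Distances from a TSS were taken to the midpoint of a position, and marked positions at most 1000 bp apart formed a stretch. Log2 differences used a pseudocount of 0.01. Motifs were searched on both strands of RefSeq promoters of GRCh38.p14, with overlapping matches kept. The members, the pathway, regulator and marker lists and the genes named beside them (paralogues and partners, neighbours, the 3 highest of the pathway, and the 2 genes nearest in FPKM with equal counts of marks) were chosen with earlier results of these data known, and 2 genes of these lists are not reported here. Alternatives were other flanks, windows, overlaps, FPKM limits, pseudocounts and gene sets. The counting was tested on simulated data. The scripts ran on Python 3.11.15 with pandas 2.3.3, numpy 2.4.6, matplotlib 3.10.9 and scipy 1.17.1.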

Additional observations from a re-analysis of the deposited data

How the results depend on the processing

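No paired analysis was possible because each assay has 1 sample and there are no groups. Marked positions over the loci plus 10 kb numbered 129. Counting only those nearest to the TSS of the gene gave 63, and leaving out PC and PKLR, whose coordinates are shared, gave 66 (chosen after seeing the data). Flanks of 0, 5 and 20 kb and any overlap of at least 1 bp gave 89 to 149. At least 3 T near the TSS were found for 1 gene, for 2 with a window of 5 kb (HK2 added), for 2 with any overlap (PKLR added, since 1 peak can then mark neighbouring positions), and 5 genes had at least 1 T. H3K27me3 or H3K9me3 was found at 1 gene, at 0 without the flank and at 2 with a flank of 20 kb (PC added). Genes at an FPKM of at least 1 numbered 6, against 4 to 8 with other limits, single runs or without PC and PKLR.

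Log2 differences shrank with a larger pseudocount. With a pseudocount of 1, they were 5.44 for PCK2 minus PCK1, 3.61 for HK2 minus HK1, 4.46 for PKM minus PKLR and 3.58 for G6PC3 minus G6PC. FBP1 minus FBP2, with the locus of FBP2 on the strand of FBP1, went from 1.71 to 1.43 with a pseudocount of 0.1 and 0.57 with 1. A pseudocount added to both values cannot change the sign of their difference, so these settings do not test the signs. Each difference kept its sign with either run alone. The choice of locus did matter for FBP2: its other locus had a mean of 1.02, above the 0.878 of FBP1. That locus was higher than FBP1 in run 1 and lower in run 2. Percentiles moved by -4.75 to -0.267 against all named loci and by -37.1 to -1.15 against genes at an FPKM of 0.1 or more. With no read counts, depth is unknown, and neither a stricter peak threshold nor a counting interval for an FPKM could be set.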

Other observations

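Transcription factors and coactivators known to act on these genes in liver were present as RNA. All 12 regulators examined were at an FPKM of at least 1, with a median of 23.2 and a lowest value of 7.19 for FOXO1, the forkhead factor that insulin restrains. CEBPA, a factor of differentiated hepatocytes, was highest at 71.0, with 70.6 in run 1 and 71.5 in run 2. HNF4A, a master regulator of hepatocyte genes, had 64.6, and MLXIPL, which responds to glucose and acts on PKLR, had 32.5. At least 3 T within 2 kb of the listed TSS were found at 10 of the 12, with the most at FOXA2 (10 T at an FPKM of 13.99). Over all named genes, 47.6% were at an FPKM of at least 1 and 27.8% had at least 3 T there, and the list holds liver regulators chosen with earlier results known. The 27.8% was therefore not taken from genes alike in RNA level, and whether the regulators differ from such genes was not tested. The other two, without a T there, were PPARGC1A, the coactivator of fasting gluconeogenesis, at 8.40 and NR3C1, the glucocorticoid receptor, at 11.5. PPARGC1A had no marked position within 2 kb, and NR3C1 had 1. Whether other starts of these genes carry marks was not examined here.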
